A study of Homo sapiens with 4 samples.

Results

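Interferon-stimulated antiviral genes were followed in DAOY, an established human medulloblastoma cell line, after lentiviral hairpins against the X-linked transcription factor ZFX. The set was a list of 49 genes known from textbooks as interferon targets, chosen with earlier results of these data known. Of these, 47 had a probe set that carried 1 gene symbol, out of 18417 such genes on the array, and 45 of the 47 passed the intensity filter, out of 13813 genes in all. STAT2 and GBP1 had no such probe set and were not analysed here. BST2 and EPSTI1 lay below the filter, a mean log2 intensity of 6.78 over the 4 arrays.

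There were 3 arrays of cells with an anti-ZFX hairpin, named H2, H3 and H4, 1 array each, and 1 array of cells with a scrambled hairpin that has no target. All cells, the scrambled ones included, had been exposed to lentivirus for 16 to 24 hours, left for 48 hours, and kept for about 48 hours in puromycin at 2 ug/mL, so lentivirus and puromycin were given to the cells of every array. Viral entry was not measured, and the labels do not say whether transductions were repeated or run in parallel. Each value is a bulk measurement in which fewer cells expressing a gene and less RNA per cell cannot be told apart.

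Cells make interferons when sensors such as RIG-I and MDA5 meet foreign RNA. Interferon receptors then signal through JAK1 and TYK2 to a complex that contains IRF9 and binds the interferon-stimulated response element (ISRE) in the promoters of its target genes. The products of these genes degrade, modify or sequester viral RNA, block entry and budding, and raise the level of the sensors themselves. Many tumour cell lines are known to express part of the set without added interferon.

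The promoters of 5 members are shown because they put the same element beside different responses. Each is the 250 bases before the transcription start from RefSeq on GRCh38.p14, read 5′ to 3′ on the gene's strand, with matches to the ISRE core, GAAANNGAAA on either strand, in capitals. DDX60 (chr4:168318753-168319002, minus strand) was lower with every hairpin by 1.5-fold or more. IFIT1 (chr10:89392373-89392622, plus strand) and IFIT5 (chr10:89414318-89414567, plus strand) are neighbours that differed in response mainly with H2. Their log2 differences were -1.52 and -0.22 with H2, -0.42 and -0.14 with H3, and -0.14 and -0.08 with H4. ISG15 (chr1:1013247-1013496, plus strand) was slightly higher with every hairpin, and ISG20 (chr15:88638766-88639015, plus strand) was the member nearest to no difference.
DDX60: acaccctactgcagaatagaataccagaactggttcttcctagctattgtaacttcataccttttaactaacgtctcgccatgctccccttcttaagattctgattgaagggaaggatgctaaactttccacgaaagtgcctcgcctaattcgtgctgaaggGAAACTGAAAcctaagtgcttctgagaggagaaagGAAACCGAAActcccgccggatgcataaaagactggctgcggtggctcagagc
IFIT1: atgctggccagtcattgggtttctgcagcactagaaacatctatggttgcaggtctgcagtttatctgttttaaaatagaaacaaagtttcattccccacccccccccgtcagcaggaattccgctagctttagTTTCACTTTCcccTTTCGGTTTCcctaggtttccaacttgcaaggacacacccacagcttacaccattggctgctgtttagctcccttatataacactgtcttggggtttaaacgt
IFIT5: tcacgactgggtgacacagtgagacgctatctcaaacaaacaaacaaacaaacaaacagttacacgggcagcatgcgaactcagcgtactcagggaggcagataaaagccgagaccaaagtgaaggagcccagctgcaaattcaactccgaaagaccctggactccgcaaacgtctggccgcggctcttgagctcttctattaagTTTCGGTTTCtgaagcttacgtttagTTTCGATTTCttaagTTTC
ISG15: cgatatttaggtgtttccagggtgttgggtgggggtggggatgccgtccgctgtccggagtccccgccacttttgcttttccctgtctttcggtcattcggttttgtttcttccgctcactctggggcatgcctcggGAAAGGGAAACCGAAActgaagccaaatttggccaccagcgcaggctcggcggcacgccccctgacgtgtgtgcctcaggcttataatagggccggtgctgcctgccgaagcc
ISG20: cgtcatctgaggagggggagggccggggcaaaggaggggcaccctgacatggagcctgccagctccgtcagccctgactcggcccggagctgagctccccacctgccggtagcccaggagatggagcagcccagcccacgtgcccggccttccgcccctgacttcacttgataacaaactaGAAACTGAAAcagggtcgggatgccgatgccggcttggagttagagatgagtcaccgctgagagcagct

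The ISRE core occurred in the promoter window, 250 bases before to 50 after the start, of 23 of the 37 filtered members with a sequence in the table (62.2%), against 3.57% of all 35116 promoters. MX2, IFIT2, TRIM22, DHX58, OASL, OAS2, USP18 and IRF7 had no entry. Among the 37, members with and without the core had similar responses. Whether the core sorts the whole set cannot be read from this. MX2, IFIT2, TRIM22, DHX58, OASL and OAS2, all among the 16 largest mean differences, are missing from it. The median of the mean log2 differences was -0.39 over the 23 members with a core and -0.41 over the 14 without, and 16 of 23 and 11 of 14 were lower with all 3 hairpins. Counting the start base as 0, the first bases of the DDX60 cores lay at -88 and -53, those of IFIT1 at -116 and -103, those of ISG15 at -113 and -107, where the matches overlap, and that of ISG20 at -69. The IFIT5 cores began at -45, -19 and -4, the last running past the start and so shown only in part. The gamma-activated site TTCNNNGAA, an element of interferon gamma responses, was found in 24.3% of the 37 promoters and 7.66% of all. The letters AGGCCT, the core of the motif known for ZFX, were found in 24.3% of the 37 and 10.9% of all. The median of the mean log2 differences was -0.44 over the 9 members with these letters and -0.39 over the 28 without. Of these, 7 of 9 and 20 of 28 were lower with all 3 hairpins. Over all filtered members 75.6% were lower with all 3, and over all genes that passed the filter 30.6% were. The 35116 promoters were not limited to genes that passed the intensity filter, whereas the 37 were, so for each motif the shares come from unlike sets. A match in these windows is a description of letters and not a measured binding site.

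**Figure D1:**
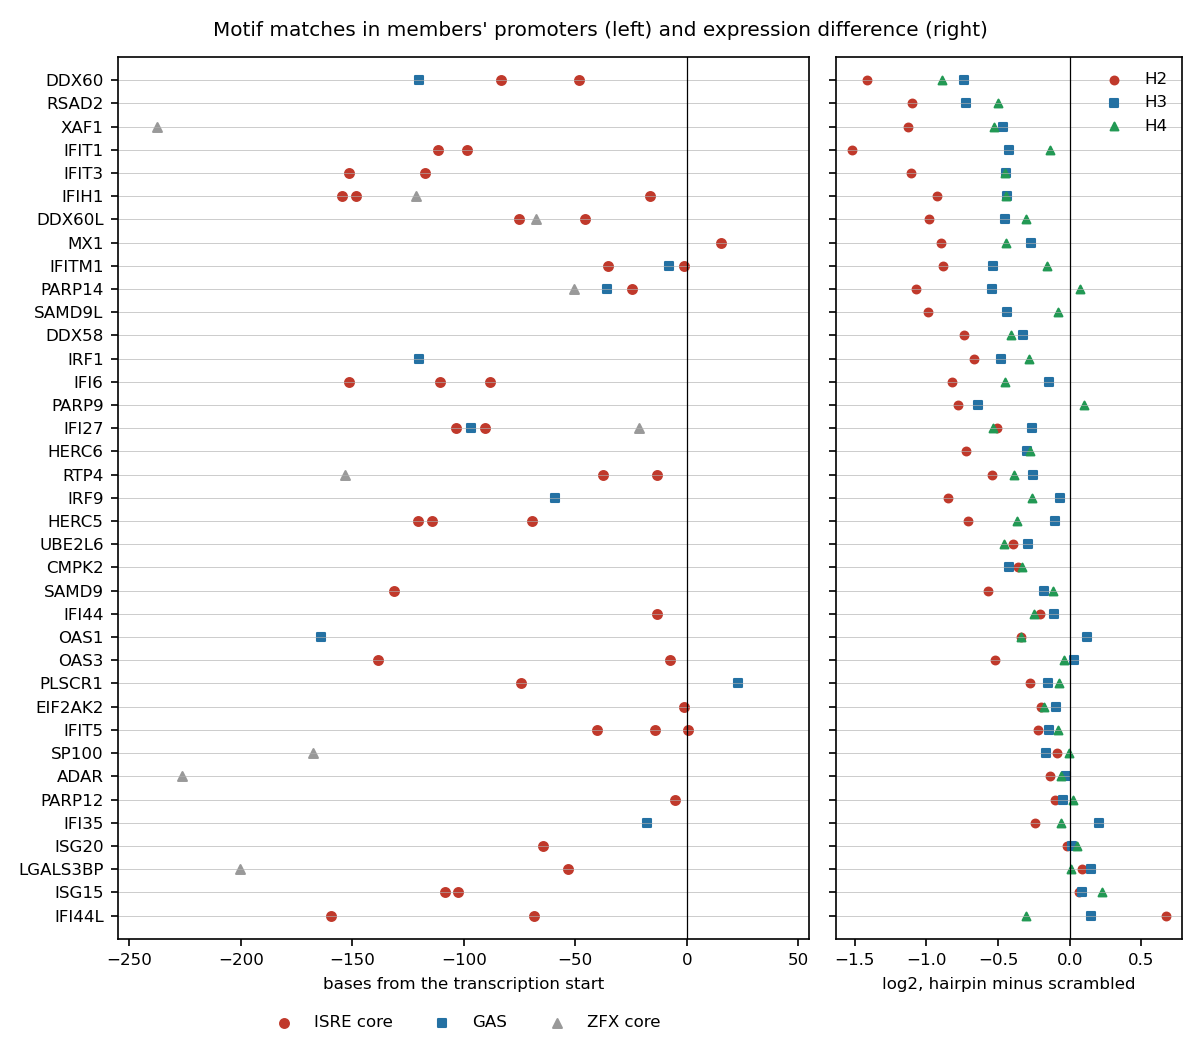
Left, places of the ISRE core (red circles), gamma-activated site (GAS, blue squares) and ZFX core (grey triangles) in bases from the transcription start, for the 37 members with a promoter sequence, sorted by mean difference. Right, the log2 difference of each hairpin array from the scrambled array. Cores are seen at the top and at the bottom of the order, from DDX60 to ISG15 and IFI44L.

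ZFX itself read 744.9, 749.6 and 995.6 with H2, H3 and H4, against 1430 on the scrambled array, which is 52.1%, 52.4% and 69.6% of the scrambled intensity. Its mean log2 difference was -0.80 ± 0.24 (SD, n = 3 hairpins). With 1 lone array among 4, an exact two-sided permutation test gave p = 0.25, the smallest this design allows. Of 10 cerebellar and medulloblastoma markers kept, 3 were lower with all 3 hairpins (30.0%, where 30.6% of all genes kept were). A further 4 were higher with all 3 (40.0%, where 16.9% of all genes were) and 3 were mixed, and NES lay under the filter. The lower ones were PAX6, at -0.58, -0.33 and -0.072 with H2, H3 and H4 (mean -0.33, and -0.20 without H2), ZIC1 (mean -0.16) and ZIC2 (mean -0.21). VIM read 13540 to 13940 with the hairpins and 13030 on the scrambled array, and OTX2 read 503.6 to 524.2 with the hairpins and 480.9 on the scrambled array. The summed intensity of the 11 measured was 18130, 17920 and 17950 with H2, H3 and H4, against 17570 on the scrambled array. Most of each sum came from VIM, so the sums say little about the other markers. The median log2 difference of the 10 kept was 0.0015, 0.034 and -0.022 with H2, H3 and H4. Of 6 leukocyte markers measured, PTPRC, which defines white blood cells, stood at 41.9 to 42.4 with the hairpins and 43.0 on the scrambled array, under the filter, as did CD3E and ITGAM. CSF1R, a macrophage receptor, passed the filter and was on the lower side like most of the set, at 144.6, 148.4 and 178.3 with H2, H3 and H4, against 198.1 on the scrambled array (mean -0.34). CD14 read 130.6 to 136.2 with the hairpins and 133.2 on the scrambled array. The summed intensity of the 6 was 2341, 3730 and 2786 with H2, H3 and H4, against 3098 on the scrambled array, most of it from CD68, also a lysosomal gene of other cells. The part of these markers in the results was not tested. Both plasmacytoid dendritic cell markers measured, CLEC4C and IL3RA, were under the filter and summed to 109.9 to 111.4 with the hairpins and 115.5 on the scrambled array.

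Most of the set stood below the scrambled array. Because the list was chosen with earlier results of these data known, its shares here and below are descriptions. With all 3 hairpins, 34 of the 45 members were lower (75.6%, where 30.6% of all genes kept were) and 2 were higher (4.44%, where 16.9% of all genes were). The median member was at 74.1% of the scrambled intensity, a mean log2 difference of -0.43 beside -0.035 over all genes kept. Without H2 the median was -0.28. At least 1.5-fold lower with every hairpin were DDX60 and TRIM22, 2 of 45 members (4.44%, where 0.311% of all genes were). TRIM22 passed the intensity filter only through its scrambled reading, so its place in this count was favoured by the filter. The 3 comparisons share the single scrambled array, so an unusual value on it would move all of them together.

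No member passed the test over all genes. In limma 0 of 45 had an adjusted p under 0.05, as had 0.0% of the 13813 genes tested (smallest adjusted p = 0.9998). At an unadjusted p under 0.05, 10 members were lower (22.2%, where 2.48% of genes were lower at that level) and 0 were higher. They were TRIM22, DHX58, DDX60, RSAD2, IFI27, CMPK2, RTP4, UBE2L6, IFIH1 and DDX58. TRIM22 was again favoured by the filter, which it passed only through its scrambled reading. The fit has 2 residual degrees of freedom and takes the hairpins as replicates, so a member that differed strongly between hairpins, such as MX2, had a wide error.

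**Figure D2:**
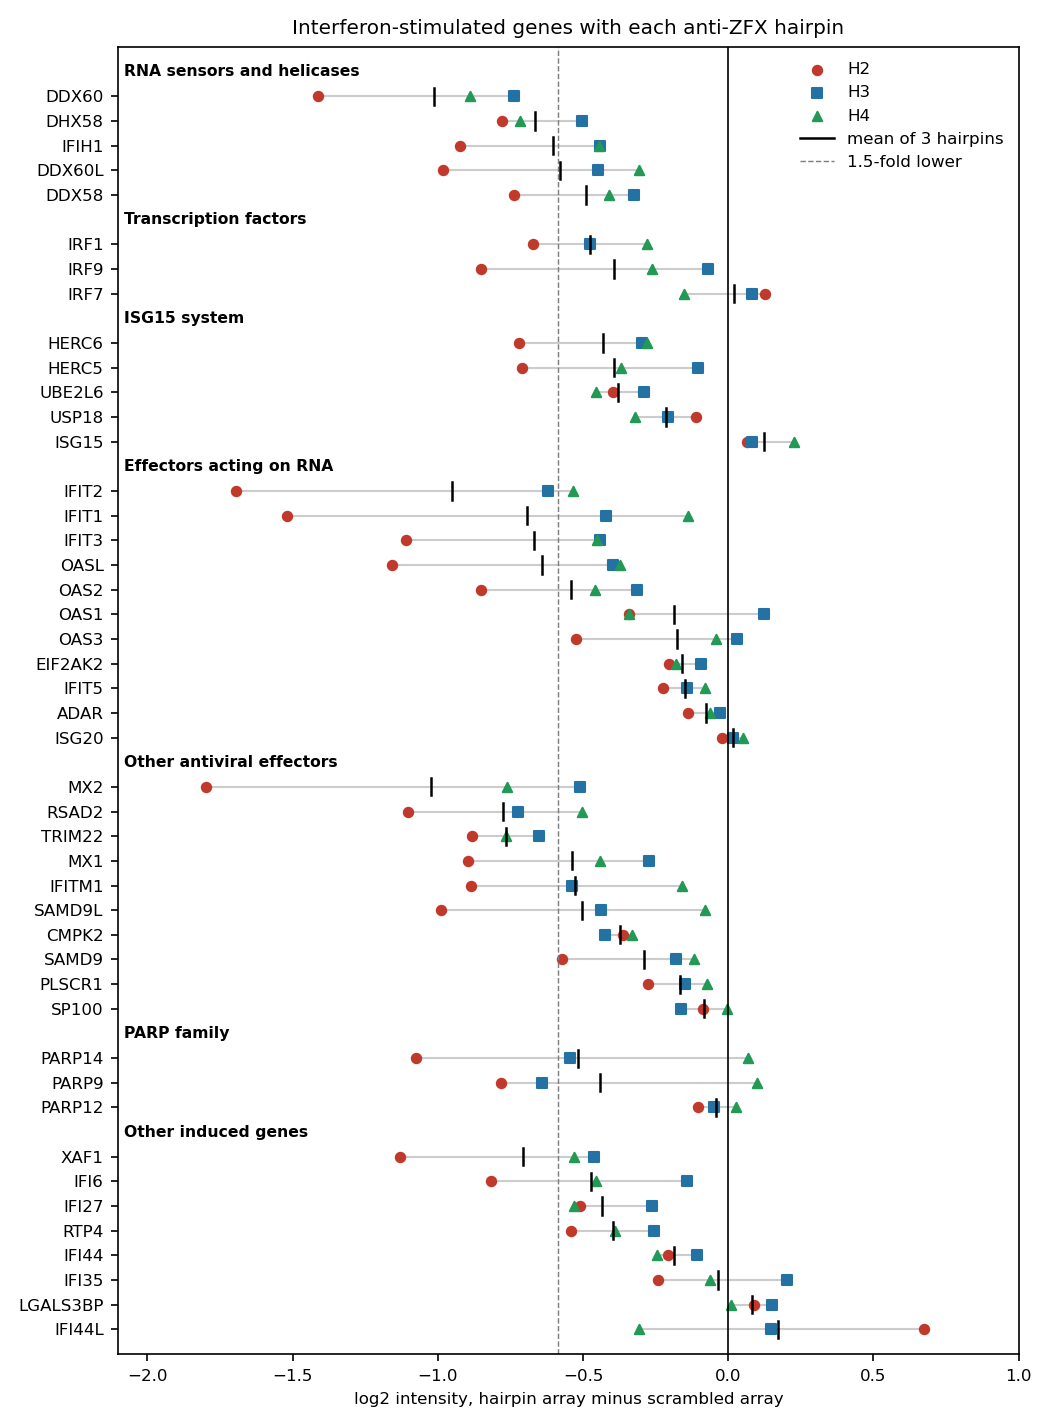
Log2 intensity of each hairpin array minus the scrambled array (horizontal axis) for the 45 members kept, grouped by role; circles, squares and triangles are H2, H3 and H4, the black bar is their mean and the dashed line marks 1.5-fold lower. H2 lies furthest left for most members, and ISG15 and LGALS3BP lie right of zero with every hairpin.

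The cytoplasmic RNA sensors were all lower with all 3 hairpins, 5 of 5 members with a median of -0.60. Counts by role, here and below, stand beside 75.6% of all members and 30.6% of all genes kept. Differences between roles were not tested. DDX60, an interferon-induced helicase reported to aid RIG-I signalling, read 154.3, 246.5 and 222.0 with H2, H3 and H4, against 411.0 on the scrambled array. All 3 hairpin arrays lay at 60.0% of the scrambled reading or less, with a mean log2 difference of -1.01 ± 0.35 (SD, n = 3; limma adjusted p = 0.9998). Its neighbour and paralogue DDX60L read 163.6, 236.5 and 260.9 with the hairpins and 322.8 on the scrambled array. The difference was smaller than that of DDX60 with each hairpin, at -0.58 ± 0.36 on the mean, and -0.38 without H2.

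DHX58, or LGP2, a RIG-I relative that tunes the signal of the other sensors, read 142.7, 172.9 and 149.0 with H2, H3 and H4, against 245.0 on the scrambled array. The hairpins were close to each other here, and the mean log2 difference was -0.67 ± 0.15. IFIH1, or MDA5, which recognises long double-stranded RNA, read 278.9, 390.1 and 388.5 with the hairpins and 529.4 on the scrambled array (-0.60 ± 0.28). H3 and H4 coincided and H2 stood below both. DDX58, or RIG-I, the sensor of RNA with a 5′ triphosphate, had log2 differences of -0.74, -0.32 and -0.41.

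Of the transcription factors measured, 2 of 3 were lower with every hairpin. IRF1, which drives interferon and antigen presentation genes, differed by -0.67, -0.48 and -0.28 with H2, H3 and H4. IRF9, a DNA-binding part of the complex that acts on the ISRE, differed by -0.85, -0.069 and -0.26, and its mean moved to -0.17 without H2. IRF7, which amplifies interferon alpha production, was above the scrambled array with H2 and H3 and below it with H4, at 0.13, 0.082 and -0.15, and the sign of its small mean, 0.019, turned without H2 or without H3.

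The ISG15 conjugation system was split. ISG15, a ubiquitin-like modifier and one of the classical interferon targets, read 219.6, 222.4 and 245.8 with H2, H3 and H4, against 210.1 on the scrambled array. It was thus above the scrambled array with every hairpin, by a mean of 0.12 ± 0.089, and 0.073 without H4. The enzymes around it were lower with all 3 hairpins. UBE2L6, the conjugating enzyme, differed by -0.40, -0.29 and -0.46, and HERC5, the human ISG15 ligase, by -0.71, -0.10 and -0.37 (mean -0.39, and -0.24 without H2). HERC6, the main ISG15 ligase in mouse, differed by -0.72, -0.30 and -0.28. USP18, which removes ISG15 and restrains receptor signalling, differed by -0.11, -0.21 and -0.32, the only member of the system for which H2 was nearest to the scrambled array on the lower side.

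Effectors that act on RNA had the widest range, from a mean of -0.95 for IFIT2 to 0.015 for ISG20. In all, 8 of 11 were lower with every hairpin and 0 were higher, with a median of -0.19. IFIT2, a tetratricopeptide repeat protein that works in complexes with its relatives, read 237.9, 501.7 and 531.8 with H2, H3 and H4, against 770.7 on the scrambled array. The H2 reading was far below those of both other hairpins, and the mean of -0.95 ± 0.65 moved to -0.58 without H2. IFIT1, which binds viral RNA lacking a methylated cap, read 310.8, 665.0 and 809.0 with the hairpins and 890.0 on the scrambled array. H4 came within 0.14 of the scrambled array on the log2 scale, and the mean of -0.69 ± 0.73 moved to -0.28 without H2. IFIT3, which stabilises IFIT1 on RNA, read 260.1, 412.7 and 409.7 with the hairpins and 560.7 on the scrambled array (-0.67 ± 0.38).

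The oligoadenylate synthetases make the second messenger that activates RNase L. OASL, a relative without that activity that supports RIG-I, read 472.8, 801.8 and 814.9 with H2, H3 and H4, against 1055 on the scrambled array. The mean was -0.64 ± 0.45, and -0.38 without H2. OAS2 read 426.8, 620.2 and 560.6 with the hairpins and 770.2 on the scrambled array, a mean of -0.54 ± 0.28. OAS1 and OAS3 did not stay on 1 side. They differed by -0.34, 0.12 and -0.34 for OAS1, and by -0.52, 0.03 and -0.041 for OAS3, whose mean of -0.18 was -0.005 without H2.

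The other RNA effectors stood close to the scrambled array. EIF2AK2, the kinase PKR that halts translation on double-stranded RNA, differed by -0.20, -0.094 and -0.18, and ADAR, which edits adenosine to inosine, had a mean of -0.077 ± 0.056. IFIT5, whose promoter holds 3 ISRE cores, had a mean of -0.15 ± 0.072. ISG20, an exonuclease, had a mean of 0.015 ± 0.037, so all 4 arrays read 214.7 to 225.9. ADAR was no longer lower with all 3 hairpins once each array was centred on its median.

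**Figure D3:**
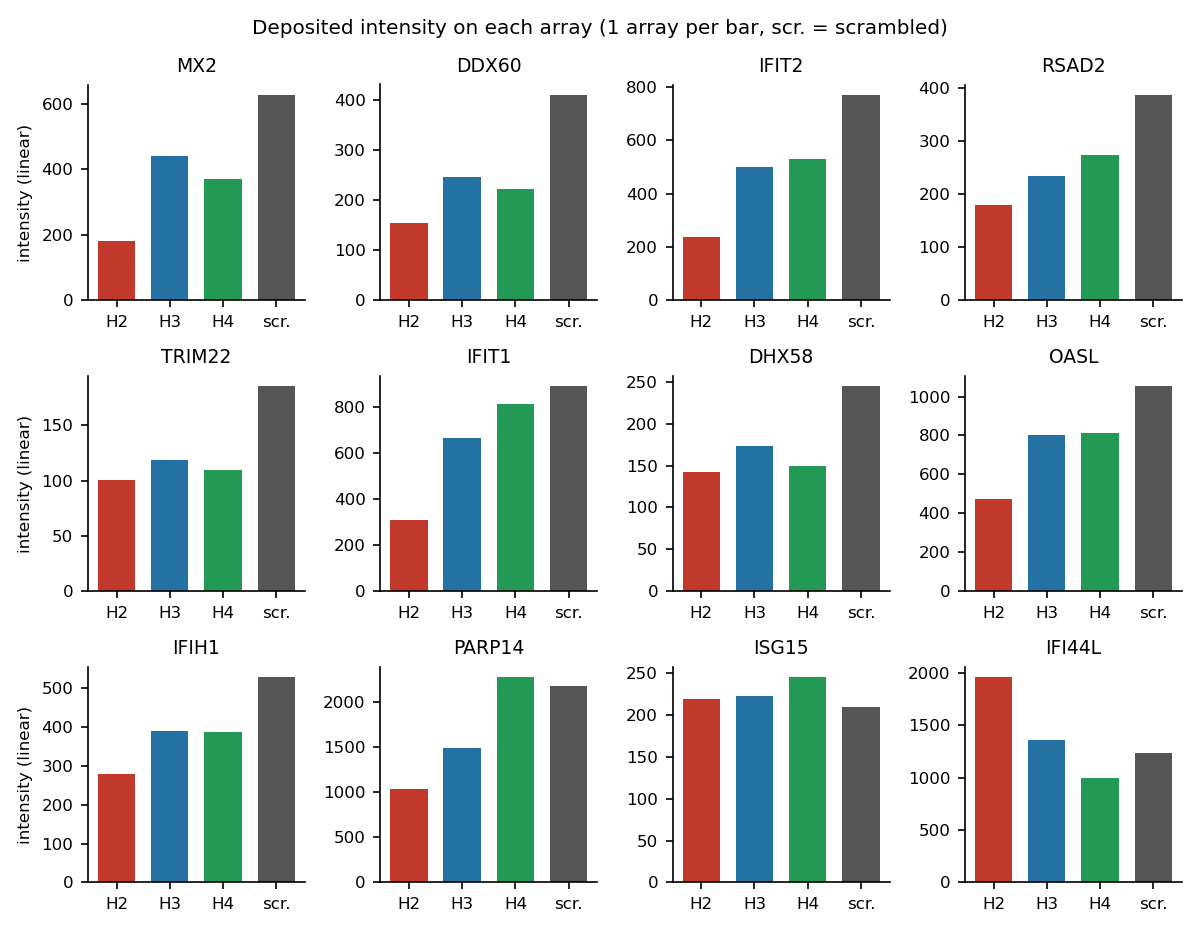
Deposited intensity (linear scale from 0) of 12 members on each array, from H2 to H4 and then scrambled, 1 array per bar. The scrambled bar is the highest for the first 9 genes, H4 is the highest for PARP14 and ISG15, and H2 is the highest for IFI44L.

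All 10 other antiviral effectors kept were lower with every hairpin, with a median of -0.51. MX2, a dynamin-like GTPase known for restricting HIV and herpesviruses, read 180.6, 440.5 and 370.0 with H2, H3 and H4, against 627.7 on the scrambled array. It had the largest mean difference of the set, -1.02 ± 0.68, with H2 far below the other hairpins, and -0.64 without H2. Its neighbour MX1, which blocks influenza virus, read 322.2, 496.8 and 441.4 with the hairpins and 599.7 on the scrambled array. The order of the arrays was the same and the mean smaller, -0.54 ± 0.32, and -0.36 without H2.

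RSAD2, or viperin, which makes a chain-terminating nucleotide from CTP, read 180.6, 234.7 and 273.9 with H2, H3 and H4, against 387.8 on the scrambled array (-0.78 ± 0.30). CMPK2, the mitochondrial nucleotide kinase encoded beside it, was lower by a nearly equal amount with each hairpin, at -0.36, -0.42 and -0.33. TRIM22, an antiviral ubiquitin ligase, read 100.7, 118.4 and 109.3 with the hairpins and 185.8 on the scrambled array. All 3 hairpin readings lay at 63.7% of the scrambled one or less, the mean was -0.77 ± 0.12, and its unadjusted limma p of 0.0011 was the smallest of the set. Its hairpin readings lie around the intensity filter of 110.2, which it passed only through its scrambled reading, so its small p was favoured by the filter.

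IFITM1, a membrane protein that blocks viral fusion, read 201.6, 257.0 and 333.9 with H2, H3 and H4, against 372.7 on the scrambled array (-0.53 ± 0.36, and -0.35 without H2). SAMD9L and SAMD9, neighbouring genes that restrict poxviruses, had means of -0.50 ± 0.46 and -0.29 ± 0.24, and both rested mainly on H2, at -0.26 and -0.15 without it. PLSCR1, a membrane protein induced by interferon, had a mean of -0.17 ± 0.10. SP100, a part of PML nuclear bodies, had a mean of -0.085 ± 0.079 and was not lower with all 3 hairpins under any of the 3 other scalings.

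Of the ADP-ribosyltransferases of the PARP family, 0 of 3 were lower with every hairpin, since each was above the scrambled array with H4. PARP14 read 1030, 1488 and 2276 with H2, H3 and H4, against 2170 on the scrambled array. It was low with H2 and H3 and above the scrambled array with H4, for a mean of -0.52 ± 0.57, which was -0.24 without H2 and -0.81 without H4. PARP9 did the same, at -0.78, -0.64 and 0.098, and its mean was -0.27 without H2 and -0.71 without H4. PARP12 stayed near the scrambled array, with differences of -0.10, -0.048 and 0.025.

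Of 8 other induced genes kept, 5 were lower with every hairpin and 1 was higher. XAF1, a partner of the apoptosis inhibitor XIAP, read 848.1, 1345 and 1284 with H2, H3 and H4, against 1855 on the scrambled array (-0.71 ± 0.37). IFI6, IFI27, RTP4 and IFI44 were also on the lower side with all 3, with means of -0.47, -0.44, -0.40 and -0.19, the first being -0.30 without H2. LGALS3BP, a secreted glycoprotein, read 2214, 2309 and 2095 with the hairpins and 2081 on the scrambled array. It was above the scrambled array with every hairpin, by a mean of 0.083 ± 0.071, and 0.049 without H3. IFI35 lay on both sides, at -0.24, 0.20 and -0.06, and its mean of -0.034 changed sign when quantile normalization was run again, and was 0.070 without H2.

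IFI44L was far above the scrambled array with H2. It read 1965, 1365 and 996.7 with H2, H3 and H4, against 1232 on the scrambled array, so its log2 differences were 0.67, 0.15 and -0.31, and its mean of 0.17 was -0.079 without H2. It was the 1 member at least 1.5-fold higher with H2 (2.22%, where 0.992% of all genes were). IFI44, the gene beside it, differed by -0.21, -0.11 and -0.25 with the same hairpins. Below the filter, BST2, or tetherin, read 79.7 to 86.4 with the hairpins and 80.5 on the scrambled array, and EPSTI1 read 58.6 to 60.2 with the hairpins and 69.7 on the scrambled array.

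The hairpin arrays differed in how far the set stood below the scrambled array. At least 1.5-fold lower with H2 were 24 of the 45 members (53.3%, where 5.61% of all genes were), with H3 5 members (11.1%, where 1.14% were) and with H4 4 members (8.89%, where 2.17% were). The H3 members were DDX60, IFIT2, RSAD2, TRIM22 and PARP9, and the H4 members were DDX60, DHX58, MX2 and TRIM22. TRIM22, counted with every hairpin, passed the intensity filter only through its scrambled reading. The medians were -0.71, -0.27 and -0.31 with H2, H3 and H4, or 61.1%, 82.8% and 80.9% of the scrambled intensity. Over all genes kept they were -0.030, -0.021 and -0.046, and the SD of the log2 differences of all genes was 0.31, 0.20 and 0.22, so H2 also spread other genes more widely.

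Set against the other hairpins, without the scrambled array, H2 again stood low. The median of H2 minus H3 was -0.38 on the log2 scale, with 40 of 45 members lower on the H2 array (88.9%, and 52.4% of all genes kept). For H2 minus H4 the median was -0.34, with 38 of 45 lower (84.4%, and 47.1% of all genes). H4 and H3 were close, with a median of -0.068 for H4 minus H3 and 26 of 45 lower (57.8%, and 55.05% of all genes). H2 was the lowest of the 3 hairpins for 36 members (80.0%, and 36.0% of all genes). The ZFX intensity was 52.1%, 52.4% and 69.6% of the scrambled intensity with H2, H3 and H4, and the set's medians were 61.1%, 82.8% and 80.9%. Whether the set follows the ZFX intensity was not tested. With 1 array per hairpin the differences between hairpins have no replicate check and were given no test.

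**Figure D4:**
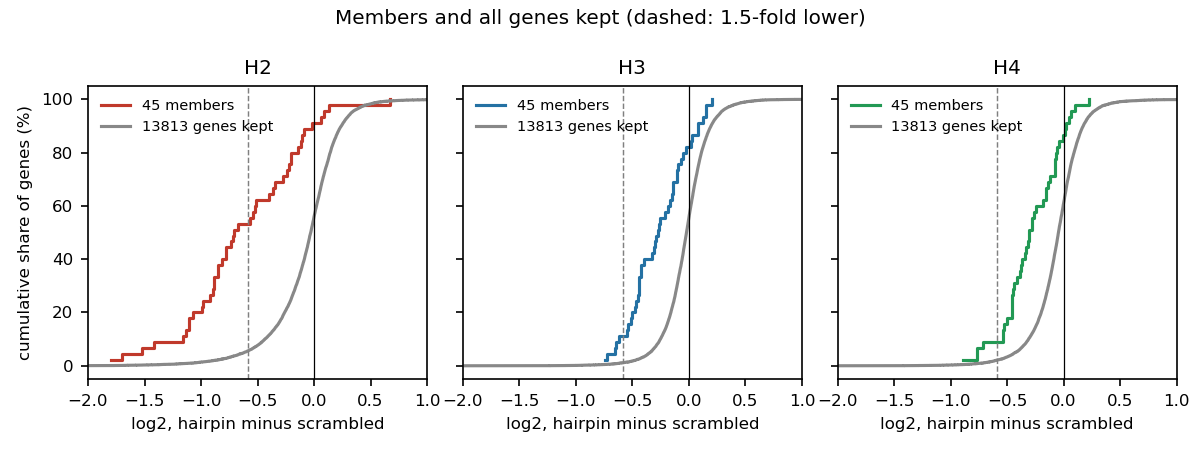
Cumulative share (%) of the 45 members (coloured) and of the 13813 genes kept (grey) by log2 difference from the scrambled array, a panel per hairpin; the dashed line is 1.5-fold lower. At that line 53.3%, 11.1% and 8.89% of members lie to the left with H2, H3 and H4.

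Many members are chromosomal neighbours, and neighbours were compared. IFIT2, IFIT3 and IFIT1 on chromosome 10 had means of -0.95, -0.67 and -0.69, while IFIT5, directly after IFIT1, had -0.15. Without H2 the means of IFIT1 and IFIT5 were -0.28 and -0.11. In the OAS cluster on chromosome 12, OAS1 and OAS3 had -0.19 and -0.18 and OAS2, the next gene, -0.54. Without H2 the means of OAS1, OAS3 and OAS2 were -0.11, -0.005 and -0.39, so OAS2 still stood apart. The pairs HERC6 and HERC5 on chromosome 4 (-0.43 and -0.39) and PARP9 and PARP14 on chromosome 3 (-0.44 and -0.52) were alike, with 2 other protein-coding genes between the PARP pair. Within the pairs DDX60 and DDX60L, MX2 and MX1, RSAD2 and CMPK2, and IFI44 and IFI44L, the genes differed by over 0.3 in their means. Of these pairs, only DDX60 and DDX60L still did without H2, at -0.81 and -0.38. The other pairs were then at -0.64 and -0.36 for MX2 and MX1, -0.61 and -0.35 for RSAD2 and CMPK2, and -0.18 and -0.079 for IFI44 and IFI44L. Related sequences in the IFIT, OAS and MX families may share probes, which was not tested.

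Genes upstream of the set were examined for whether the pathway's own inputs differed. Of the interferon genes, 13 of 16 measured lay under the filter, with readings of 33.5 to 66.1 on the hairpin arrays and 35.7 to 65.6 on the scrambled array. IFNB1, the interferon made first by most non-immune cells, read 38.5, 44.0 and 41.0 with H2, H3 and H4, against 45.3 on the scrambled array. At these readings a difference in interferon transcripts was not detectable. Among the 3 kept, IFNL1 and IFNL3 were each above the scrambled array with 1 hairpin and below it with 2. IFNL2 read 141.7, 147.9 and 174.2 with the hairpins and 109.4 on the scrambled array, a value near the filter in a gene almost identical to IFNL3, so it remains uncertain.

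Receptors and signalling genes were mixed. All 3 hairpin arrays were below the scrambled one for 7 of 15 genes (46.7%, where 30.6% of all genes were) and above it for 4 (26.7%, where 16.9% were), with a median of -0.12. The interferon receptor chains IFNAR1 and IFNAR2 were higher with every hairpin, by means of 0.15 ± 0.096 and 0.19 ± 0.17, as was the kinase TYK2 (0.12 ± 0.076). Without H4 the IFNAR1 mean was 0.10, and without H3 those of IFNAR2 and TYK2 were 0.090 and 0.077. JAK1 read 2908, 4303 and 4995 with H2, H3 and H4, against 4991 on the scrambled array, so H2 was the furthest from it, and the mean of -0.33 was -0.11 without H2 and -0.50 without H4. SOCS1, an interferon-induced inhibitor of JAK kinases, had the largest difference of this list, -0.45 ± 0.12, and JAK2 had -0.20 ± 0.12.

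In the sensing and adaptor list 10 of 18 genes kept were lower with all 3 hairpins (55.6%, where 30.6% of all genes were) and 0 higher (where 16.9% were), with a median of -0.19. AIM2, a DNA sensor that is itself induced by interferon, read 210.1, 376.6 and 406.8 with H2, H3 and H4, against 601.0 on the scrambled array (-0.92 ± 0.52). IKBKE, an inducible kinase that activates IRF3 and IRF7, had a mean of -0.65 ± 0.35, TLR3, the endosomal sensor of double-stranded RNA, -0.51 ± 0.30, and TANK, an adaptor of these kinases, -0.43 ± 0.19. Without H2 the means of AIM2, IKBKE, TLR3 and TANK were -0.62, -0.47, -0.35 and -0.32. IRF3, the constitutive activator of interferon beta, had -0.17 ± 0.037, and the adaptor MAVS had log2 differences of -0.30, -0.17 and -0.38.

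Among 35 further interferon-stimulated genes kept, none of them members, 17 were lower and 1 higher with all 3 hairpins (48.6% and 2.86%, where 30.6% and 16.9% of all genes were), with a median of -0.20. Like the members, they were chosen with earlier results of these data known. The 3 largest mean differences were those of GBP5, GBP2 and GBP4, interferon gamma-inducible GTPases, while their relative GBP3 had a mean of -0.31. GBP5 read 143.5, 300.2 and 160.9 with H2, H3 and H4, against 450.0 on the scrambled array, a mean of -1.24 ± 0.57. GBP4 was at least 1.5-fold lower with every hairpin, the only gene of this list to be so, with a mean of -1.03 ± 0.49. GBP2 read 109.3, 487.8 and 399.9 with the hairpins and 584.5 on the scrambled array, so its mean of -1.08 ± 1.17 rested mainly on H2 and was -0.40 without it. TNFSF10, the death ligand TRAIL, had a mean of -0.86 ± 0.76, and -0.42 without H2. In limma 0 of the 71 genes kept in these 4 lists had an adjusted p under 0.05. At an unadjusted p under 0.05, 5 were lower (7.04%, where 2.48% of all genes were) and 1, IFNL2, was higher (1.41%, where 0.746% of all genes were).

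**Figure D5:**
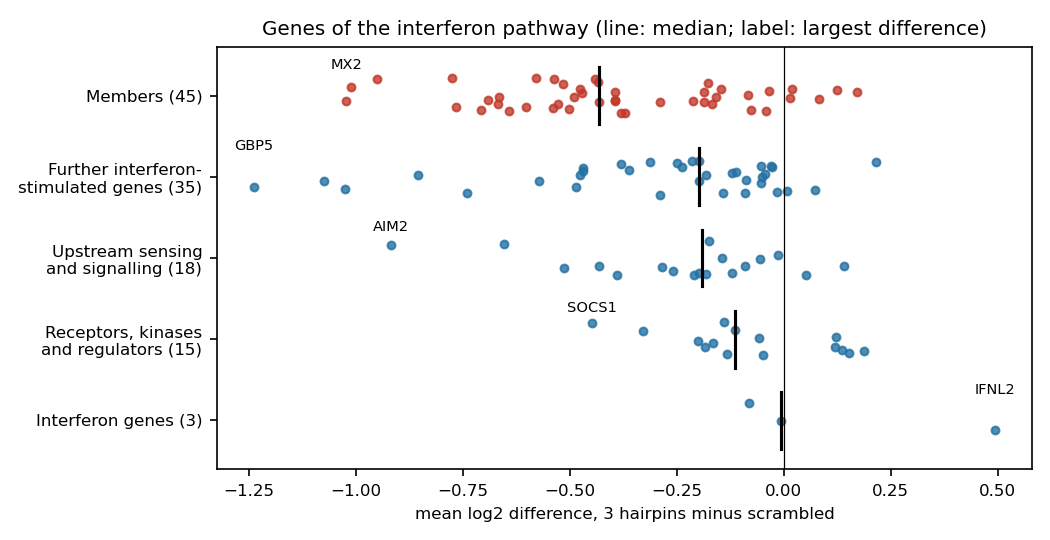
Mean log2 difference of the 3 hairpins from the scrambled array for each gene kept in 5 lists of the interferon pathway, with the number of genes in brackets, the median as a line and the gene of largest difference labelled. The members have the lowest median, -0.43, and the genes for interferons the highest, -0.006 over 3 genes.

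Outside the pathway, the genes whose 3 differences lay closest to the members' medians of -0.71, -0.27 and -0.31 were PHLDA3, HIPK3, TNS3, CTSB and DUSP5, by root mean square distance over the 3 hairpins (0.019 to 0.033 on the log2 scale). PHLDA3 read 240.1, 323.7 and 308.4 with H2, H3 and H4, against 388.0 on the scrambled array. With 3 points per gene and 13813 genes, close matches are easily found, and the likeness is a description.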

How the data were processed

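The authors deposited an intensity for each probe set on each of 4 arrays, made with RMA, per the submitters' processing notes. The version, the settings and the genome build are not given in the sources. Although RMA commonly ends in log2, these intensities are linear, with array medians of 226.0 to 232.3, so log2 was taken first. A shift shared by most genes would be removed by RMA, which gives every array a like distribution. No detection call, scan date or slide was used, so batches could not be examined, and the number of arrays limits the precision.

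Of 33297 probe sets, 19460 carry 1 gene symbol and stand for 18417 genes; 1754 carry several and 12083 none. Of the 19460, 19429 matched RefSeq by gene number. The probe set with the highest mean was kept per gene, and genes below the 25th percentile of mean log2 intensity were left out. DDX58 is listed as RIGI in RefSeq. The 3 hairpin arrays were set against the scrambled array with limma 3.58.1 in R 4.3.3 (lmFit, eBayes with trend, Benjamini-Hochberg over 13813 genes). A run on simulated data with equal noise on all 4 arrays checked only the size of the estimated differences. The fit assumes that the lone scrambled array varies like the others, and p-values measure only the spread between these samples. A single hairpin against the scrambled array was given no p-value. Differences are hairpin minus scrambled, and SDs are over the 3 hairpins. "Lower" and "higher" describe sides of the scrambled array, not tested changes.

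The members and lists were chosen with earlier results of these data known. Intensities on every array are given for ZFX, the 16 members with the largest mean difference, members on the higher side with every hairpin, and members 1.5-fold away with every hairpin; from each pathway list up to 4 genes with the largest differences and a few fixed ones are named. Intensities of IFI44L and PHLDA3 and the promoters of IFIT1, IFIT5 and ISG15 were chosen after their values were seen. Alternatives were 3 other scalings, 2 other filters, the mean of all probe sets, 2 other folds, eBayes without trend, and each hairpin left out. Figures were drawn with matplotlib 3.10.9.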

Additional observations from a re-analysis of the deposited data

How the results depend on the processing

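The direction of the set's median held under each alternative run. It was -0.40 with each array centred on its median and with cyclic loess, -0.38 with quantile normalization again, and between -0.50 and -0.28 with 1 hairpin left out, the smallest without H2. Members lower with all 3 hairpins numbered 32 to 33 under the other scalings, where SP100 left the count each time and ADAR with centring, while the share of all genes fell to between 23.3% and 26.5%, against 30.6% as deposited. With 1 hairpin left out they numbered 34 to 37, and the share of all genes was 39.4% to 40.6%, since fewer arrays had to agree. ISG15 and LGALS3BP stayed higher with all 3 under each scaling. Of the 34 lower members, 13 had a mean over 1.5 times smaller without H2, 1 without H3 and 0 without H4, and none changed sign. Pathway and marker genes were recomputed without each hairpin after the data had been seen.

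The count at 1.5-fold with every hairpin, 2, was 2 to 5 with 1 hairpin left out, 12 at a smaller fold limit (25% in place of 50% apart) and 0 at 2-fold. With 1 hairpin left out the share of all genes also rose, to between 0.420% and 0.919%, against 0.311% with all 3. With the filter raised to the 50th percentile, and so 34 members left, the count was 0, where 0.304% of all genes were. The counts for single hairpins were then 2 for H3 and 1 for H4, since dimmer members such as DDX60 and TRIM22 were no longer included. Shares of all genes were not computed for the other fold limits or for these single-hairpin counts, which are descriptions only. The limma count stayed at 0 under every alternative. No paired analysis was possible because the scrambled hairpin has 1 array. Readings near the filter limit what can be said of the interferon genes, BST2, EPSTI1 and TRIM22.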
